A study of Homo sapiens with 9 samples.

Results

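The 26S proteasome and its activators were described here through 39 genes, chosen by symbol with earlier results of these data known. They encode subunits of the core particle, of the regulatory particle and of 3 kinds of activator. All 39 were among the 20637 genes of the count table, and all 39 were among the 12569 genes tested. The proteasome is a protease that degrades proteins tagged with ubiquitin. Its barrel-shaped core is built of rings of alpha subunits, which gate the entrance, and rings of beta subunits, some of which cut peptides. A regulatory particle with an ATPase base and a lid binds ubiquitin chains, removes them and feeds the unfolded substrate into the core. Blood cell lineages also express inducible catalytic subunits, which replace the constitutive ones to form the immunoproteasome, a source of peptides for class I antigen presentation.

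RNA came from HL-60, a human promyelocytic leukaemia line, in 3 states with 3 biological replicates each. Parental cells have no drug named in the labels. The HRA line resists Ara-C (cytarabine), a nucleoside analogue that stops DNA replication, and grew with 100 nM of the drug. The HRD line resists DNR (daunorubicin), an anthracycline that traps topoisomerase on DNA, and grew with 30 nM. Each resistant state is 1 line, so the state of resistance, the presence of the drug and the history of that line cannot be told apart.

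The libraries held 20822709 to 66563328 reads, and a proteasome gene had between 107 and 29692 reads in any library. Errors below come from the spread between replicates, which includes counting error. The labelled cell type was checked with 6 markers of promyelocytes, whose summed normalized count came mostly from MPO. That sum was 288495 to 331088 in parental, 259040 to 288427 in HRA and 210296 to 268439 in HRD libraries. Both resistant lines lay below every parental library, and the part of this in the results below was not tested. ELANE, another of the 6 markers, did not exceed 4.06. Markers of T cells, B cells, red cells and fibroblasts summed to at most 40.6 in any library. Of the epithelial markers, KRT8 reached 390 and their sum was 69.9 to 105 in parental, 91.4 to 152 in HRA and 283 to 399 in HRD cells, and its part in the results below was not tested.

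Calls were made gene by gene, and whether the 39 genes moved together in either resistant line was not tested. In HRA cells 2 of the 39 genes fell against parental cells and none rose by the limma test (a p below 0.05 after Benjamini-Hochberg adjustment over the whole table), where 6.1% of all tested genes fell, 9.13% rose and 15.2% passed in either direction. At an unadjusted p below 0.05 the counts were 12 lower and 2 higher, and edgeR and DESeq2 found none of the 39 higher either. In either direction, 3929 of all 12569 tested genes had an unadjusted p below 0.05 by limma in this comparison. That number was 4409 in HRD against parental cells and 5283 in HRD against HRA. DESeq2 called 1378 of all tested genes higher and 988 lower in HRA, and 1493 and 1652 in HRD, against parental cells. In HRD cells 5 genes fell and 3 rose, against a background of 12% lower and 10.7% higher. HRD set directly against HRA gave the most calls, 10 higher and 5 lower, where 13.9% and 16.2% of all tested genes were called (30.1% in either direction). As shares of the 39, the 10 higher genes were 25.6%, above the background, while the 8 calls of HRD against parental cells (20.5%) were near the 22.8% of all tested genes.

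The changes were small in size, and in bulk RNA fewer cells of a kind and less RNA per cell cannot be told apart. The median log2 fold change of the 39 genes was −0.12 in HRA against parental, 0.01 in HRD against parental and 0.10 in HRD against HRA, and the median of all tested genes was −0.01, 0.01 and 0.00. The largest change of any proteasome gene against parental cells was that of PSME3 in HRD, at −0.81. In HRA 25 of the 39 genes had a negative log2 fold change, and 13 genes had every HRA library below every parental one, with 3 the other way round, where 18.7% and 19.3% of all tested genes were separated in these directions (38% in all). In HRD 4 genes lay wholly above and 4 wholly below parental cells, against 17.1% and 18.2% of all tested genes (35.3% in all). Between the resistant lines 13 genes were wholly higher and 7 wholly lower in HRD, against 22.8% and 24.2% (47% in all). Together the 39 genes took up 0.825 ± 0.0703% of a parental library (SD, n = 3, as in all such values), 0.750 ± 0.0180% of an HRA library and 0.807 ± 0.0529% of an HRD library.

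**Figure D1:**
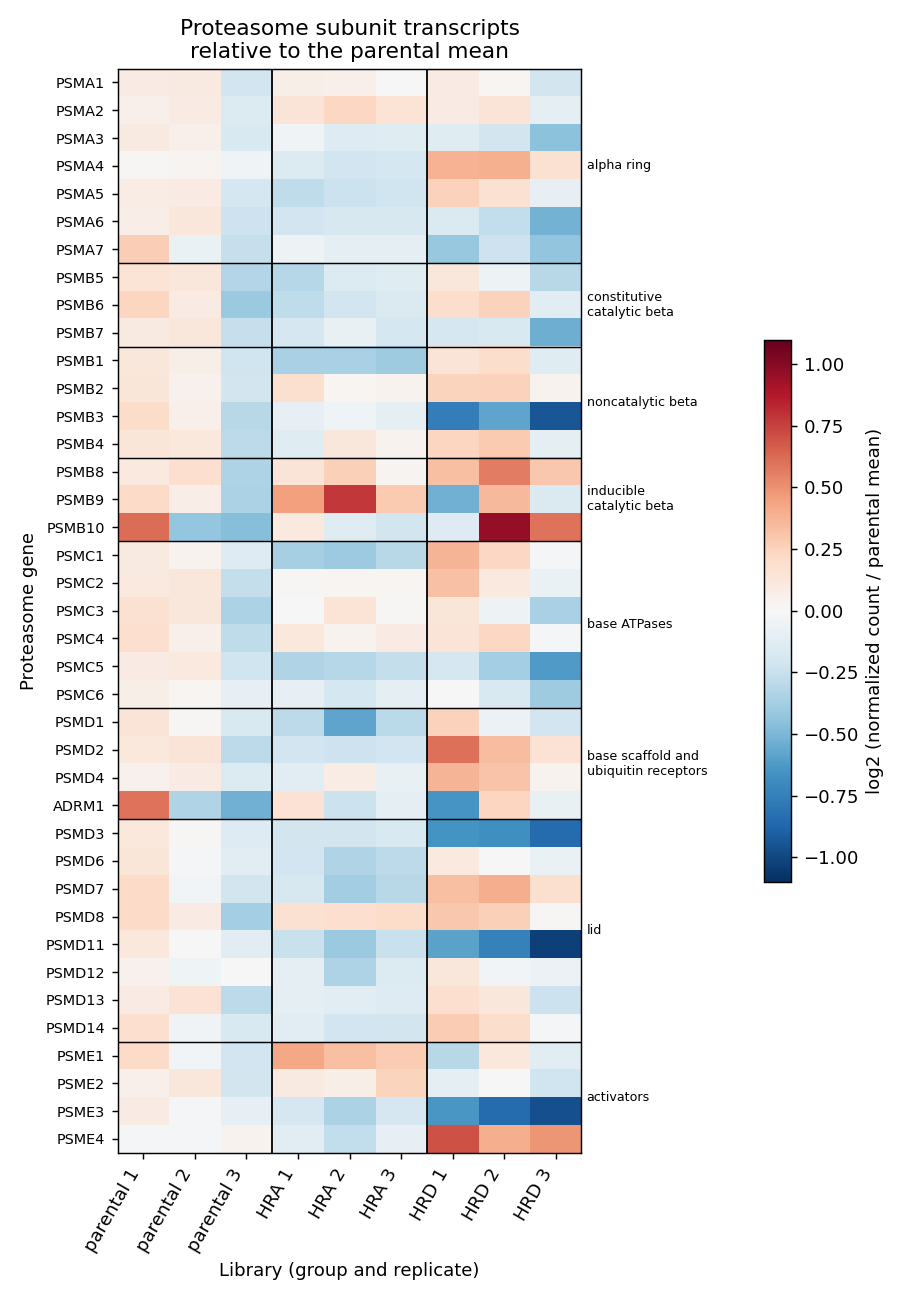
Each cell is the log2 ratio of a library's normalized count to the parental mean of that gene, with 39 proteasome genes as rows grouped by role and 9 libraries as columns. In HRD the rows of PSMB3, PSMD3, PSMD11 and PSME3 are low in all 3 libraries, and replicate 3 of parental and of HRD cells is the lowest replicate for 37 and 34 genes.

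The replicates themselves differed in a shared way, which bears on every comparison below. Replicate 3 was the lowest of the 3 parental libraries for 37 of the 39 genes and the lowest of the 3 HRD libraries for 34, but of the HRA libraries for 9. Over all tested genes replicate 3 was lowest for 34.9%, 36.0% and 35.6% in these groups. The median proteasome gene lay 0.20 below its group's mean on the log2 scale in parental replicate 3 and 0.18 below in HRD replicate 3, where the medians of all tested genes were 0.00 and −0.02. No label ties replicate number to a batch or a day, and the part of this pattern in the results was not tested. With replicate 3 of all groups left out, an alternative chosen after the pattern was seen, HRD against parental cells gave 2 genes higher and 4 lower, and HRA against parental cells 0 higher and the same 2 lower. Calls over all 12569 tested genes dropped too. In HRD they went from 1350 higher and 1513 lower to 650 and 611. In HRA they went from 1148 higher and 767 lower to 415 and 257.

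The proteins behind the changes belong to all parts of the particle, so the genes are given here by role, starting with promoters. The 4 genes that fell furthest in HRD and the 2 that were higher in HRD than in both parental and HRA cells by limma, PSMA4 and PSME4, are shown by the 250 bases upstream of their transcription start site in RefSeq, on the assembly GRCh38.p14, 5′ to 3′ on the strand of the gene. Capitals mark matches to TGACNNNGC, the core of the antioxidant response element bound by NRF1 and NRF2, and to CCAAT, the box bound by NF-Y, each on either strand. PSMB3 lies on the plus strand (window chr17:38752491-38752740), as do PSMD3 (chr17:39980557-39980806), PSMD11 (chr17:32444260-32444509), PSME3 (chr17:42833147-42833396) and PSMA4 (chr15:78540155-78540404), and PSME4 lies on the minus strand (chr2:53970994-53971243).
PSMB3: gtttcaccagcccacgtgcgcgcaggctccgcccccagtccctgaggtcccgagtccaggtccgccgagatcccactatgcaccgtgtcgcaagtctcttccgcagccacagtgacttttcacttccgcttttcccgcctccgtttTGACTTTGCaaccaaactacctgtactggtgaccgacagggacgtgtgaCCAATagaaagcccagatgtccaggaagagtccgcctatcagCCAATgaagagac
PSMD3: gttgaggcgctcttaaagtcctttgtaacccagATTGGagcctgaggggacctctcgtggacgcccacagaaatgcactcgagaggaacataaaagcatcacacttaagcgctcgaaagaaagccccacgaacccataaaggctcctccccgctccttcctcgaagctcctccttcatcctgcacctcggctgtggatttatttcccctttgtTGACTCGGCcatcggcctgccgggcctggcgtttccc
PSMD11: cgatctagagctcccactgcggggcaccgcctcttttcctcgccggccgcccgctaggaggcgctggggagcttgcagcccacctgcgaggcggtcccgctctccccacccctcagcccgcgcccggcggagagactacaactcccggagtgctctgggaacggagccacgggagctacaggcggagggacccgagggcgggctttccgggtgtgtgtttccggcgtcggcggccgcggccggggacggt
PSME3: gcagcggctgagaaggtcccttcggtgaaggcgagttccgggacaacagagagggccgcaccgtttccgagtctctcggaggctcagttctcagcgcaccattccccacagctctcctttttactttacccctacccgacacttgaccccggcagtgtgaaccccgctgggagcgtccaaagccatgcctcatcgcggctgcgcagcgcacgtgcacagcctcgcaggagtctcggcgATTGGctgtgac
PSMA4: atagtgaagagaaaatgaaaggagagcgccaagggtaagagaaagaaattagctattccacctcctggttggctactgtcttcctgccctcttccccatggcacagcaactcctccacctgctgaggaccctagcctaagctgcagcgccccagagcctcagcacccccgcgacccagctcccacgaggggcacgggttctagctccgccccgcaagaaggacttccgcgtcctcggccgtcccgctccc
PSME4: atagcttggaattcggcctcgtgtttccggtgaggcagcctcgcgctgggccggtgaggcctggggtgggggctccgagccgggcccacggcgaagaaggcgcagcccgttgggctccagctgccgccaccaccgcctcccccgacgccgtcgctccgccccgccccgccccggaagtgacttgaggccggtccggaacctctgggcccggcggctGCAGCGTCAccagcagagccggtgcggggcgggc

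No motif searched was present in all 4 genes that fell together in HRD. PSMB3 and PSMD3 held 1 TGACNNNGC match each, beginning 104 and 37 bases upstream of the start, and PSME4, which rose, held 1 on the opposite strand at 34 bases. PSMD11 held no match to any of the 4 motifs searched. PSMB3 also held 2 CCAAT boxes, PSMD3 and PSME3 1 each on the opposite strand, and PSMB3 and PSME3 each an E-box, CACGTG. PSMA4 held 1 core of the interferon-stimulated response element, beginning 240 bases upstream. Windows were found for 34 of the 39 genes. TGACNNNGC was in 8 of them (23.5%) against 11.5% of the 15843 windows of protein-coding genes, CCAAT in 16 (47.1%) against 34.5%, the core of the interferon-stimulated response element in 4 (11.8%) against 2.72%, and CACGTG in 2 (5.88%) against 7.84%. Both strands were searched, matches of different motifs did not overlap in these windows, and a match of letters is a description of the window, not of binding.

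Among the 7 alpha ring genes only PSMA4 changed in HRD by limma, where DESeq2 also called PSMA6 and PSMA7 lower. None passed in HRA by limma, edgeR or DESeq2, and 2 were lower there at an unadjusted p below 0.05. PSMA4 stood at 11347, 11491 and 10938 normalized reads in parental libraries 1 to 3, at 10134, 9741 and 9858 in HRA and at 14713, 14803 and 12679.5 in HRD. Every HRD library lay above every parental library and every HRA library below. The rise in HRD was 1.25-fold (log2 fold change 0.32 ± 0.08, SE, adjusted p = 0.0151), and the call was lost without HRD replicate 2 (adjusted p = 0.0609). Across the alternatives that adjusted p was between 0.00122 and 0.148. Against HRA the difference was 1.42-fold (0.50 ± 0.08, adjusted p = 0.00102) and held in all 19 alternatives.

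PSMA5, another gene of the alpha ring, passed only between the resistant lines. Its values were 11656, 11742 and 9640.4 in parental cells, 9049, 9371 and 9452 in HRA and 13099.9, 12381 and 10340.3 in HRD. The HRA libraries lay below both other groups, while parental and HRD values overlapped. HRD exceeded HRA by 0.36 ± 0.11 on the log2 scale (adjusted p = 0.0263), a call lost without HRA replicate 1, 2 or 3 or HRD replicate 1 or 2 (adjusted p from 0.0622 to 0.0903). The other 5 alpha genes did not pass in any comparison by limma. PSMA7, PSMA6 and PSMA3 had the lowest log2 fold changes of these in HRD against parental, at −0.34 (adjusted p = 0.0574), −0.31 (0.0714) and −0.26 (0.0904), while PSMA1 and PSMA2 lay at −0.02 and 0.05.

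The 3 constitutive catalytic subunits did not pass in any comparison by limma, edgeR or DESeq2, and at an unadjusted p below 0.05 PSMB7 alone was lower, in HRD. PSMB5 carries the chymotrypsin-like activity that bortezomib blocks. It stood at 5394, 5295 and 3892 in parental cells, 3912, 4387 and 4423 in HRA and 5303, 4683 and 3930.5 in HRD, and all 3 groups overlapped (log2 fold changes −0.18 ± 0.14 and −0.06 ± 0.14 in HRA and HRD). PSMB6, the caspase-like subunit, had 3903, 3541 and 2506 in parental cells, 2725, 2862 and 2969 in HRA and 3783, 3945 and 3040.3 in HRD, with every HRD value above every HRA value (0.32 ± 0.15, adjusted p = 0.125). PSMB7, the trypsin-like subunit, had 11614, 11813 and 9093 in parental cells, 9553, 10235 and 9493 in HRA and 9545, 9632 and 7456 in HRD. Its groups overlapped in both comparisons with parental cells, and the log2 fold change in HRD was −0.29 ± 0.12 (adjusted p = 0.117).

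Of the 4 noncatalytic beta genes, PSMB3 fell in HRD and PSMB1 fell in HRA. PSMB3 had 7677, 6922 and 5403 normalized reads in parental cells, 6248, 6461 and 6189 in HRA and 3944, 4465 and 3477 in HRD. The HRD libraries lay below all 6 others, and HRA values fell within the parental range. The fall in HRD was 1.67-fold (−0.74 ± 0.13, adjusted p = 0.00182) and held in all 19 alternatives, where its adjusted p stayed at or below 0.00924. In HRA the log2 fold change was −0.07 ± 0.13 (adjusted p = 0.756), and the difference between HRD and HRA was itself past the threshold (−0.68 ± 0.13, adjusted p = 0.0025).

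PSMB1 had 14607, 14008 and 11469 normalized reads in parental cells, 10404, 10450.3 and 10219 in HRA and 14730.1, 15319.8 and 12185 in HRD. The 3 HRA libraries were close to each other and below all others. The fall in HRA was 1.28-fold (−0.36 ± 0.11, adjusted p = 0.0485), with an adjusted p of 0.0113 when replicate number was a block. That call was lost in 9 of 19 alternatives, among them leaving out parental replicate 1 or 2 or any 1 HRA library (adjusted p from 0.116 to 0.140), TMM scaling and edgeR. HRD exceeded HRA by 0.44 ± 0.11 (adjusted p = 0.0127). PSMB2 and PSMB4 passed in no comparison by limma, with log2 fold changes of 0.09 and 0.02 in HRA and 0.19 and 0.16 in HRD.

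The inducible catalytic subunits PSMB8, PSMB9 and PSMB10 take the places of PSMB5, PSMB6 and PSMB7 in the immunoproteasome. PSMB8 had 1853, 1957 and 1359 normalized reads in parental cells, 1899, 2063 and 1762 in HRA and 2162, 2547 and 2116 in HRD. Every HRD library lay above every other library. The rise against parental cells was 1.33-fold (0.41 ± 0.13, adjusted p = 0.0453), and it was lost in 12 of 19 alternatives, among them leaving out any 1 library other than parental replicate 2 (adjusted p from 0.0503 to 0.154).

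PSMB9 was the least abundant subunit per kilobase and did not pass in any comparison by limma. Its values were 236, 215 and 160.4 in parental cells, 279, 350.4 and 249 in HRA and 141, 261 and 183 in HRD. All HRA libraries lay above all parental ones, at a log2 fold change of 0.52 ± 0.23 (adjusted p = 0.148). HRD against HRA gave −0.61 ± 0.23 (adjusted p = 0.0657), which DESeq2 called lower. PSMB10 had 1658, 806 and 781 in parental cells, 1166, 983 and 939 in HRA and 983, 2113 and 1639 in HRD. Parental replicate 1 was high and HRD replicate 1 low, so the groups overlapped and the log2 fold change of 0.57 ± 0.30 in HRD did not pass (adjusted p = 0.204). Those 2 libraries were also the highest and the lowest of their groups for ADRM1.

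The balance between inducible and constitutive partners was taken within each library as the percent of the inducible over the constitutive normalized count, which compares a pair across libraries and not the amounts of the proteins. PSMB8 over PSMB5 was 34.3, 37.0 and 34.9% in parental cells, 48.5, 47.0 and 39.8% in HRA and 40.8, 54.4 and 53.8% in HRD. Both resistant lines lay above all parental libraries, by 0.35 ± 0.09 and 0.48 ± 0.14 on the log2 scale. An exact permutation test of 3 against 3 libraries, two-sided, gave p = 0.1 in both, the smallest it can give, and 0.225 after adjustment over the 9 ratio tests. PSMB9 over PSMB6 was 6.05, 6.06 and 6.40% in parental cells, 10.2, 12.2 and 8.37% in HRA and 3.74, 6.61 and 6.01% in HRD. HRA lay above both other groups, by 0.72 ± 0.16 over parental cells (exact p = 0.1), while HRD overlapped with parental cells (−0.22 ± 0.25, exact p = 0.7). PSMB10 over PSMB7 was 14.3, 6.82 and 8.59% in parental cells, 12.2, 9.61 and 9.89% in HRA and 10.3, 21.9 and 22.0% in HRD, with overlap in all comparisons (exact p = 0.8 for HRA and 0.2 for HRD against parental).

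**Figure D2:**
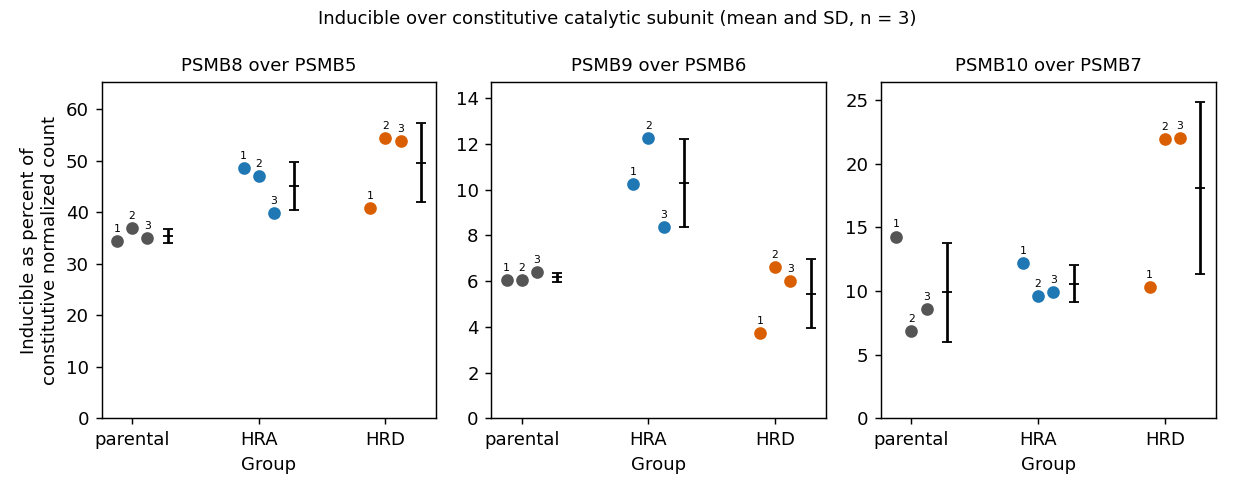
Points are single libraries, numbered by replicate, and show the inducible subunit's normalized count as a percent of its constitutive partner's, with mean and SD (n = 3) in black beside them. PSMB8 over PSMB5 lies above the parental range of 34.3 to 37.0% in all 6 resistant libraries, while PSMB9 over PSMB6 does so in the 3 HRA libraries and in HRD replicate 2, at 6.61%.

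Of the 6 ATPases of the base, which unfold the substrate, PSMC1 fell in HRA and PSMC5 fell in HRD. PSMC1 had 8928, 8548 and 7538 normalized reads in parental cells, 6489, 6334 and 6756 in HRA and 10813, 9754 and 8207 in HRD. HRA libraries lay below all others. The fall was 1.27-fold (−0.35 ± 0.10, adjusted p = 0.0439, or 0.0199 with the replicate block), and it was lost without parental replicate 1 or 2, without any 1 HRA library and without HRD replicate 2 (adjusted p from 0.0517 to 0.141). HRD exceeded HRA by 0.55 ± 0.10 (adjusted p = 0.00294), and this call held in all 19 alternatives. The annotation lists 13 pseudogenes of PSMC1 and puts 82.1% of its exon bases under the opposite-strand gene NRDE2, so its count is uncertain where the counting split or merged these reads.

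PSMC5 had 9210.3, 9356 and 7434 in parental cells, 6871, 6979 and 7209 in HRA and 7637, 6685 and 5634 in HRD. HRA lay wholly below parental cells without passing (−0.30 ± 0.12, adjusted p = 0.113), and HRD passed with an overlap of 1 library (−0.39 ± 0.12, adjusted p = 0.0362). The HRD call was lost in 11 of 19 alternatives, among them leaving out parental replicate 1 or 2, any 1 HRA library, or HRD replicate 2 or 3 (adjusted p from 0.0502 to 0.119). FTSJ3 overlaps 16.2% of its exon bases on the opposite strand. PSMC2, PSMC3, PSMC4 and PSMC6 passed in no comparison by limma, with log2 fold changes between −0.18 and 0.13.

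The base also holds the scaffolds PSMD1 and PSMD2 and the ubiquitin receptors PSMD4 and ADRM1, none of which passed against parental cells by limma or edgeR. DESeq2 called PSMD1 lower in HRA and PSMD2 higher in HRD, and at an unadjusted p below 0.05 the counts were 1 lower in HRA and 2 higher in HRD. PSMD2 had 6353, 6477 and 4799 normalized reads in parental cells, 5070.4, 5029.6 and 5069 in HRA and 8965, 7419 and 6549 in HRD. Every HRD library lay above all others. The log2 fold change against parental was 0.38 ± 0.13 (adjusted p = 0.0566, range over alternatives 0.0183 to 0.188), and against HRA it was 0.58 ± 0.13 (adjusted p = 0.00675).

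PSMD1 had 7129, 6541 and 5769 in parental cells, 5303, 4332 and 5268 in HRA and 7720.2, 6199 and 5592 in HRD. HRA libraries were the 3 lowest of the 9. The log2 fold change in HRA was −0.38 ± 0.13, with an adjusted p of 0.0666 that became 0.0219 with the replicate block. HRD exceeded HRA by 0.38 ± 0.13 (adjusted p = 0.0438), a call lost in 9 of 19 alternatives, among them leaving out parental replicate 2, any 1 HRA library, or HRD replicate 1 or 2 (adjusted p from 0.0555 to 0.159). By limma PSMD4 and ADRM1 did not pass, at 0.25 (adjusted p = 0.116) and −0.07 (adjusted p = 0.883) in HRD against parental cells. HRD against HRA gave 0.29 for PSMD4 (adjusted p = 0.0598), which DESeq2 called higher.

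In the lid, which holds the deubiquitinase PSMD14, PSMD11 and PSMD3 fell in HRD. PSMD11 and PSMD3 are scaffold subunits of the lid. PSMD11 had 7532, 6931 and 6397 normalized reads in parental cells, 5856, 5227 and 5876 in HRA and 4620.1, 4146 and 3422 in HRD. The 3 groups did not overlap, with parental cells highest and HRD lowest. The fall in HRD was 1.72-fold (−0.78 ± 0.11, adjusted p = 0.00057) and held in all 19 alternatives. In HRA the log2 fold change was −0.30 ± 0.11, with an adjusted p of 0.0941 that became 0.0424 with the replicate block.

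PSMD3 had 5535, 5136 and 4629.9 in parental cells, 4439, 4429 and 4529 in HRA and 3233, 3195 and 2829.8 in HRD. Again the 3 groups did not overlap and HRD was lowest. The fall in HRD was 1.65-fold (−0.72 ± 0.09, adjusted p = 0.00016), held in all 19 alternatives, and the HRA value did not pass (−0.19 ± 0.09, adjusted p = 0.158).

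Other lid genes were higher in HRD than in HRA. PSMD7 had 5909, 5008 and 4439.5 in parental cells, 4531, 3920.4 and 4137 in HRA and 6421, 6761 and 5799.6 in HRD. HRD exceeded HRA 1.51-fold with no overlap (0.59 ± 0.11, adjusted p = 0.00229), which held in all 19 alternatives. Against parental cells neither line passed in the unblocked limma fit of all 9 libraries, and both passed with the replicate block. The value in HRA was −0.28 ± 0.11 (adjusted p = 0.106, or 0.0435 with the block). In HRD it was 0.31 ± 0.11 (adjusted p = 0.0593, or 0.0218 with the block), and DESeq2 called PSMD7 higher in HRD. PSMD7 shares 42.4% of its exon bases with an opposite-strand transcript, AC009120.2. PSMD14, the metalloprotease that removes ubiquitin chains, had 5598, 4819 and 4390.0 in parental cells, 4532, 4264 and 4289.7 in HRA and 5980.4, 5647 and 4873 in HRD. Its HRD values lay above HRA and overlapped with parental values (HRD over HRA 0.33 ± 0.10, adjusted p = 0.0324).

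PSMD6 had 3318, 2979 and 2782 in parental cells, 2619, 2399.8 and 2485 in HRA and 3265, 3019 and 2875 in HRD, so that HRA lay below both other groups. HRD exceeded HRA by 0.29 ± 0.09 (adjusted p = 0.0284), and the log2 fold change in HRA was −0.27 ± 0.09 (adjusted p = 0.0558, or 0.0190 with the replicate block). The calls of PSMD14 and PSMD6 between the resistant lines were both lost without HRA replicate 1, 2 or 3 or HRD replicate 1 or 2 (adjusted p from 0.0665 to 0.0955 and from 0.0541 to 0.0969). PSMD8, PSMD12 and PSMD13 passed in no comparison by limma, with log2 fold changes of 0.21, −0.19 and −0.11 in HRA and 0.21, 0.01 and 0.04 in HRD.

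The activators moved in opposite directions in HRD. PSME3 encodes REG gamma, a nuclear activator of ubiquitin-independent degradation. It had 9684, 8986 and 8546 normalized reads in parental cells, 7983, 7108 and 7985 in HRA and 5819, 5054 and 4649.7 in HRD. The 3 groups did not overlap, and HRD was lowest. The fall in HRD was 1.76-fold (−0.81 ± 0.10, adjusted p = 0.00016), held in all 19 alternatives, and the value in HRA was −0.24 ± 0.10 (adjusted p = 0.118).

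PSME4 encodes PA200, a nuclear activator known from work on histone degradation and DNA repair. It had 3024, 3048 and 3148 in parental cells, 2815, 2541 and 2880.1 in HRA and 4986, 4045 and 4309 in HRD. All HRD libraries lay above all others, and all HRA libraries below the parental ones. The rise in HRD was 1.44-fold (0.53 ± 0.09, adjusted p = 0.00184) and held in all 19 alternatives, and the value in HRA was −0.16 ± 0.09 (adjusted p = 0.236). Against HRA the difference was 1.62-fold (0.69 ± 0.09, adjusted p = 0.00027).

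PSME1 and PSME2 encode the alpha and beta chains of PA28, the interferon-inducible activator. PSME1 had 7824, 6645 and 5854 in parental cells, 9079, 8540.1 and 8209 in HRA and 5480.4, 7336 and 6225 in HRD. All HRA libraries lay above both other groups. The log2 fold change in HRA was 0.35 ± 0.12 (adjusted p = 0.0732, range over alternatives 0.0344 to 0.283), and HRD was below HRA by −0.45 ± 0.12 (adjusted p = 0.0182), a call lost without HRA replicate 1 or HRD replicate 1 (adjusted p = 0.0606 and 0.0723). PSME2 passed in no comparison by limma, with log2 fold changes of 0.14 in HRA and −0.10 in HRD.

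**Figure D3:**
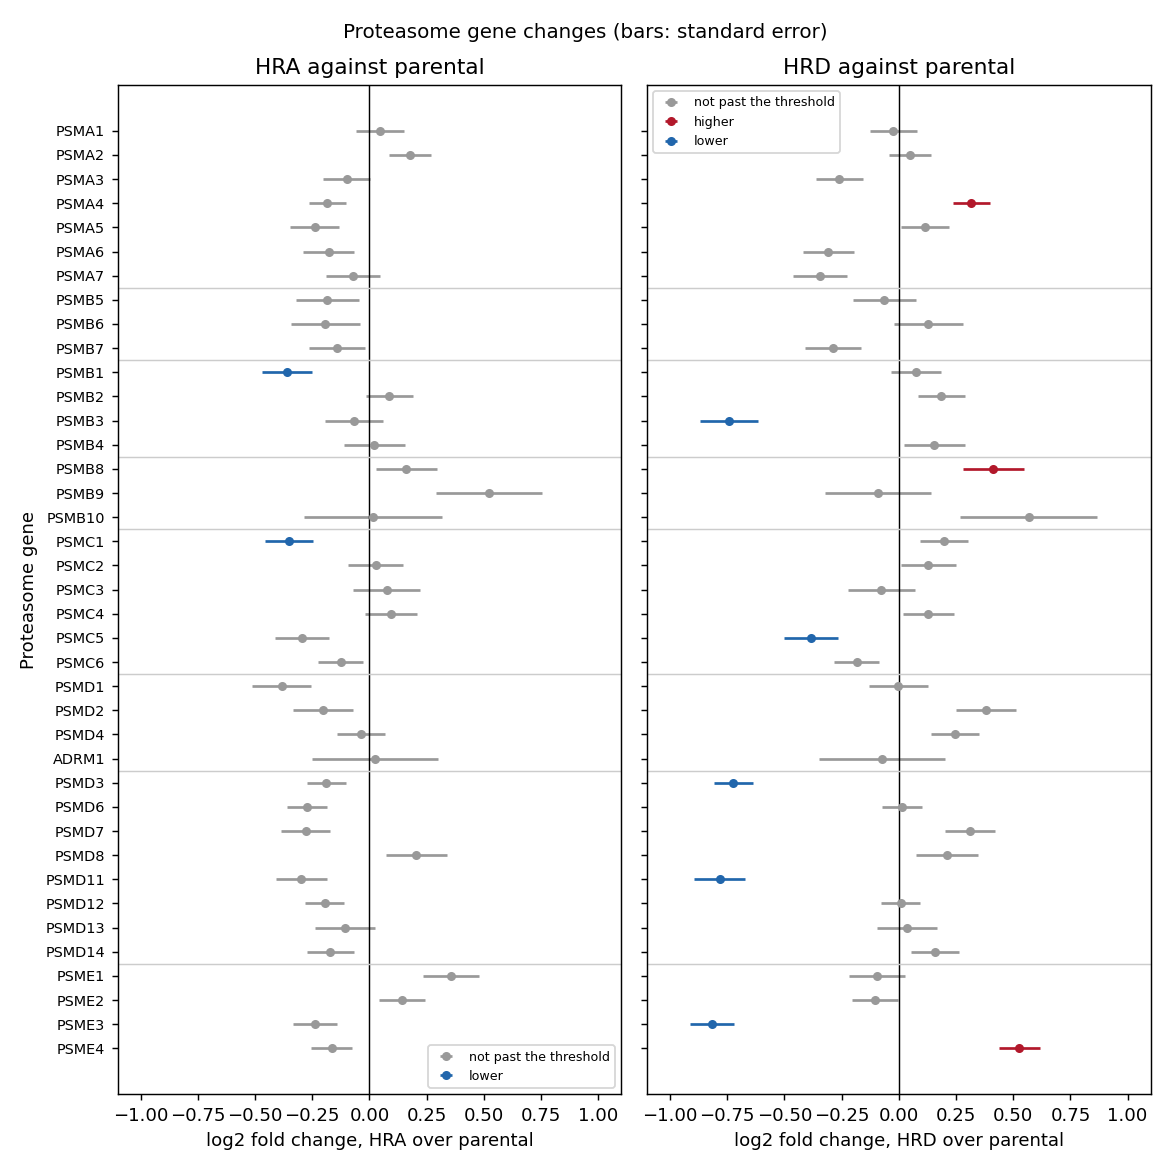
Points are log2 fold changes of the 39 proteasome genes against parental cells with standard errors of the limma fit, HRA on the left and HRD on the right, colored by call. In HRA only PSMB1 and PSMC1 pass, both lower, and in HRD PSMB3, PSMC5, PSMD3, PSMD11 and PSME3 are lower and PSMA4, PSMB8 and PSME4 higher.

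All 5 genes that fell in HRD lie on chromosome 17, which holds 7 of the 39. Of the 32 genes on other chromosomes, 3 rose and 0 fell in HRD by limma, with a median log2 fold change of 0.06. Neighbouring genes were also called lower by limma, beside the 12% of all tested genes that were. Of the 24 nearest tested protein-coding genes, 12 on each side and proteasome genes left out, 21 passed as lower around PSME3 (median log2 fold change −0.83), 19 around PSMD11 (−0.83), 20 around PSMB3 (−0.90) and 22 around PSMD3 (−0.93). Some of these neighbours are shared between PSMB3 and PSMD3, which stand at places 272 and 291 among the 639 tested genes of the chromosome. Around each of PSMD11 and PSMD3 1 neighbour passed as higher, and around PSMB3 and PSME3 0 did. Around PSMC5 11 of 24 passed as lower and 2 as higher, and the median was −0.32, beside −0.39 for PSMC5 itself.

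The other 2 proteasome genes of chromosome 17, PSMB6 and PSMD12, did not pass in HRD, with log2 fold changes of 0.13 and 0.01 in HRD and neighbour medians of 0.09 and −0.14.

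**Figure D4:**
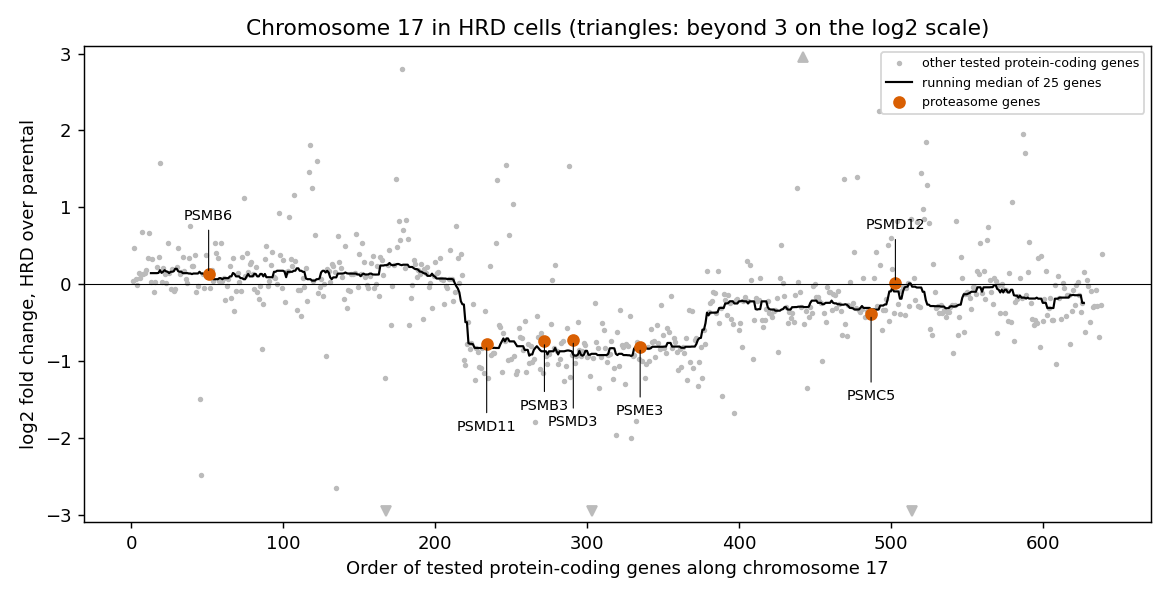
Log2 fold changes in HRD against parental cells (y axis) are plotted by the order of tested protein-coding genes along chromosome 17 (x axis), grey for other genes and orange for the 7 proteasome genes, with a running median of 25 genes. PSMD11, PSMB3, PSMD3 and PSME3 lie at −0.72 to −0.81, where the running median is also below 0, and PSMB6 and PSMD12 lie at 0.13 and 0.01.

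Beyond chromosome 17, proteasome genes and their neighbours also had related values in HRD. Across the 39 genes the log2 fold change of a gene and the median of its neighbours correlated at r = 0.89 in HRD and 0.39 in HRA against parental cells, and for the 32 genes off chromosome 17 at 0.72 and 0.37. These are descriptions across genes, which are not independent replicates and share libraries. PSMB8 with PSMB9, PSME1 with PSME2, PSMA7 with ADRM1 and PSMB4 with PSMD4 also share most neighbours. PSMA7 and PSMA3 lay at −0.34 and −0.26 in HRD with neighbour medians of −0.42 and −0.38. Of the genes that rose in HRD, PSME4 was at 0.53 beside a neighbour median of 0.10, PSMB8 at 0.41 beside 0.01 and PSMA4 at 0.32 beside 0.15. Genes without a limma call in HRD also stood apart from their neighbours. PSMB10 was at 0.57 beside 0.08, PSMD2 at 0.38 beside 0.04 and ADRM1 at −0.07 beside −0.41. In HRA, PSMB1 and PSMC1 at −0.36 and −0.35 had neighbour medians of −0.12 and 0.04.

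**Figure D5:**
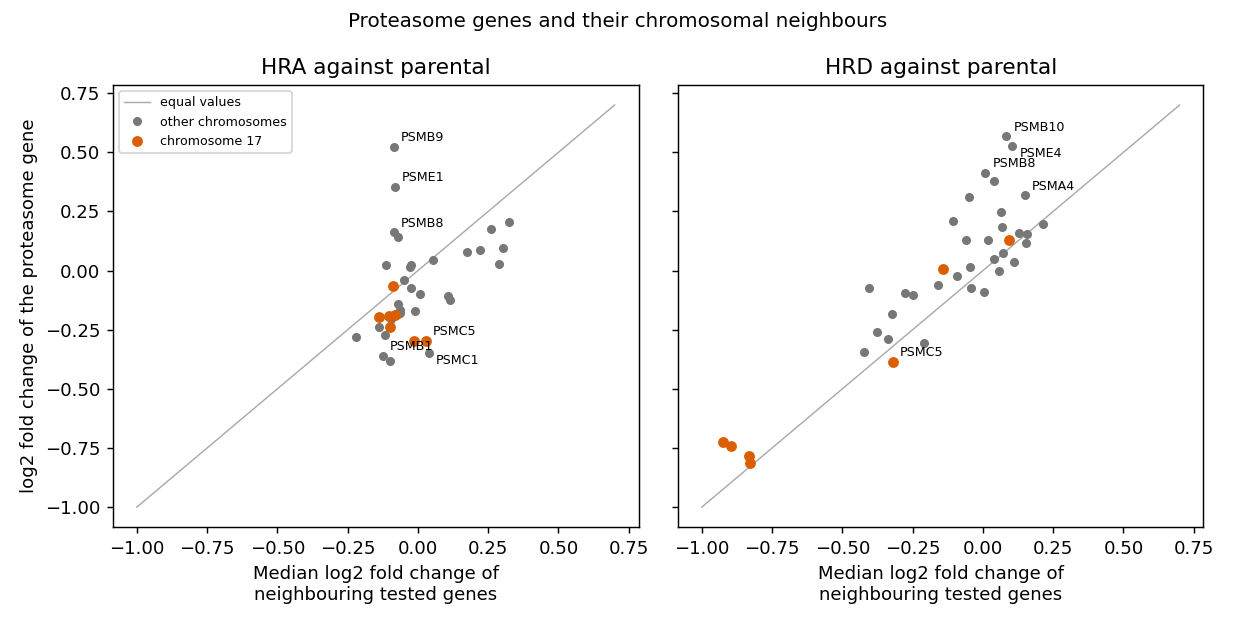
Each point is 1 of 39 proteasome genes, with the median log2 fold change of its neighbouring tested genes on the x axis and its own on the y axis, for HRA (left) and HRD (right) against parental cells. In HRD the 2 values correlate at r = 0.89 (0.72 off chromosome 17), with 4 chromosome 17 genes at the lower left. PSME4, PSMB8 and PSMA4 lie above the line of equal values. Genes without a limma call, among them PSMB10, PSMD2, PSMD7 and ADRM1, also lie above it.

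With the replicate number as a block, the comparison of HRA with parental cells gave 6 genes lower and 0 higher, where 9.56% of all tested genes were lower and 12.5% higher in that fit. The 6 were PSMB1, PSMC1, PSMD1, PSMD6, PSMD7 and PSMD11. Set directly against HRA, 10 genes were higher in HRD: PSMA4, PSMA5, PSMB1, PSMC1, PSMD1, PSMD2, PSMD6, PSMD7, PSMD14 and PSME4. For 5 of them, namely PSMA4, PSMC1, PSMD2, PSMD7 and PSME4, the call held in all 19 alternatives. The comparisons with parental cells share their controls, and all 3 comparisons share libraries in pairs, so the counts are not independent of each other.

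Levels between subunits were compared per kilobase of exon. The medians of the 39 genes were 2526, 2565 and 3015 normalized reads per kilobase in parental, HRA and HRD cells. PSMB9 was lowest in each group, at 221, 318 and 212, and the highest was PSMB1 in parental and HRD cells (14398 and 15170.5) and PSMA3 in HRA (12312). By role, the inducible catalytic subunits had the lowest medians per kilobase (888, 845 and 1296) and the noncatalytic beta subunits the highest (9497, 9307 and 8326). The annotation used for lengths is on a newer assembly than the counts, and isoform use was not measured. That annotation lists pseudogenes for 11 of the 39 genes. Same-strand protein-coding genes share 63.9% of the exon bases of PSMA6 (AL121594.1), 52.5% of PSMA2 (AC010132.3), 35.7% of PSMA1 (AC018523.2) and 30.7% of PSMB10 (AC040162.1). The lincRNA PSMB8-AS1 shares 8.65% of the exon bases of PSMB8 on the opposite strand and 15.1% of those of PSMB9 on the same strand. An antisense gene shares 8.39% of those of PSMD11. The counts of all these genes, and the ratios that use them, are uncertain to that extent.

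Genes that serve the proteasome were taken from lists and counted in the same fit. For all these lists the background is the share of all tested genes that limma called. It was 9.13% higher and 6.1% lower in HRA and 10.7% higher and 12% lower in HRD against parental cells. Between the resistant lines 13.9% were higher and 16.2% lower in HRD. Of 11 assembly chaperones and inhibitors, 1 rose and 1 fell in HRD, and none passed in HRA by limma or edgeR (1 was lower by DESeq2 and at an unadjusted p below 0.05). The list medians were 0.11 in HRA and −0.01 in HRD. The gene that fell was PSMD5, a chaperone of base assembly, with 2956 reads in the parental, 3033 in the HRA and 1 in the HRD libraries. PSMD10, the base chaperone also called gankyrin, rose from 2158 ± 129 to 2629.6 ± 284 (0.28 ± 0.09, adjusted p = 0.0499). POMP, which matures the core, stood at 11851 ± 708 in parental, 9841 ± 588 in HRA and 12931 ± 1093 in HRD cells and passed between the resistant lines (HRD over HRA 0.39 ± 0.09, adjusted p = 0.00718). SEM1, the smallest lid subunit, rose in HRA from 8426 ± 546 to 10211 ± 280.0 (0.28 ± 0.08, adjusted p = 0.0375).

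Of 10 shuttles and proteasome-bound enzymes, 1 fell in HRA and 2 rose in HRD, with list medians of −0.15 and 0.12. RAD23B, which carries ubiquitinated proteins to the proteasome, fell in HRA from 24983 ± 293 to 19329 ± 1378 (−0.37 ± 0.11, adjusted p = 0.0418). ZFAND5, a stimulator of the 26S particle, rose in HRD from 3067 ± 113 to 3952 ± 364 (0.36 ± 0.08, adjusted p = 0.00876), as did the shuttle UBQLN4 (0.38 ± 0.11, adjusted p = 0.0244). Against HRA, 4 of the 10 were higher in HRD, namely these and the shuttles UBQLN1 and UBQLN2 (0.34 ± 0.08 and 0.36 ± 0.09). Of 5 tested ubiquitin genes and activating enzymes, RPS27A fell in HRD (−0.61 ± 0.11, adjusted p = 0.00304) and UBA1, the main activating enzyme, rose (0.26 ± 0.07, adjusted p = 0.0179). UBB was listed at 0 in 8 of 9 libraries and was not tested.

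NRF1, encoded by NFE2L1, is the factor that raises proteasome genes when proteasome activity is short. NFE2L1 did not pass against parental cells, at 6609 ± 704 in parental, 6881 ± 261 in HRA and 5558 ± 695 in HRD cells, and was lower in HRD than in HRA (−0.31 ± 0.11, adjusted p = 0.0419). Of the 16 genes of its pathway, 2 rose and 2 fell in HRA and 3 rose and 1 fell in HRD, with medians of 0.00 and −0.04. Among all tested genes 9.13% rose and 6.1% fell in HRA, and 10.7% rose and 12% fell in HRD. BACH1, a repressor at antioxidant response elements, rose in both lines (0.38 ± 0.10, adjusted p = 0.0207, and 0.37 ± 0.10, adjusted p = 0.0157). NFE2L2, which encodes NRF2, fell in HRA (−0.29 ± 0.08, adjusted p = 0.0371) and rose in HRD (0.26 ± 0.08, adjusted p = 0.0463). KEAP1, which marks NRF2 for degradation, rose in HRA, and SYVN1, a ubiquitin ligase of the endoplasmic reticulum, rose in HRD (0.40 ± 0.12, adjusted p = 0.0400, and 0.48 ± 0.10, adjusted p = 0.00642). The ubiquitin ligase receptors FBXW7 and BTRC fell, the former in HRA (−0.35 ± 0.09) and the latter in HRD (−0.39 ± 0.10). Of the 8 cofactors of the unfoldase p97, none passed against parental cells by limma, edgeR or DESeq2, with 1 higher and 1 lower in HRA and 2 higher in HRD at an unadjusted p below 0.05. Between the resistant lines NSFL1C, FAF2 and UBXN4 were higher in HRD (0.44 ± 0.09, 0.38 ± 0.10 and 0.21 ± 0.07) and UBXN1 was lower (−0.43 ± 0.10).

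Class I genes load and present the peptides that the proteasome makes. Of 17 tested, 4 rose and none fell in HRA and 7 rose and none fell in HRD by limma, with list medians of 0.17 and 0.21. Among all tested genes 9.13% rose and 6.1% fell in HRA, and 10.7% rose and 12% fell in HRD. At an unadjusted p below 0.05, 1 was lower in HRA and 0 in HRD, and edgeR and DESeq2 found none lower in either line. HLA-C rose in both lines, from 428 ± 40.3 to 794 ± 115 in HRA (0.88 ± 0.20, adjusted p = 0.0124) and to 802 ± 254 in HRD (0.86 ± 0.20, adjusted p = 0.00887). HLA-B rose in HRD (1.46 ± 0.37, adjusted p = 0.0157), as did B2M, the shared light chain, from 35542 ± 3991 to 55836 ± 4788 (0.65 ± 0.11, adjusted p = 0.00162), and PDIA3, a chaperone of peptide loading (0.55 ± 0.08, adjusted p = 0.000911). TAP1, the peptide transporter next to PSMB9, rose in HRA from 414 ± 47.2 to 578 ± 84.8 (0.48 ± 0.14, adjusted p = 0.0384) and stood at 414 ± 40.0 in HRD. The peptide trimmers ERAP1 and THOP1 also rose in HRA (0.42 ± 0.10 and 0.41 ± 0.11). HLA genes are near-identical in part, so the split of reads between them is uncertain.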

How the data were processed

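RNA-seq of polyadenylated RNA from 9 HL-60 libraries (3 parental, 3 HRA, 3 HRD) was analysed. Libraries were made with a stranded kit, per the labels' protocols. Build hg19 and the tools Bowtie2 2.3.5.1, TopHat2 2.1.1, HTSeq 0.11.1, Cufflinks 2.2.1, DESeq2 and Picard are named, per the submitters' processing notes. What each tool did, which annotation was used and whether counting used strand are not given in the sources used here. Where a gene overlaps another on the opposite strand, their reads cannot be told apart unless the counting used strand.

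The authors deposited a signal, namely each gene's reads over the size factor of its library. All values (100%) were whole multiples of 1 constant per library within 0.001, so whole reads were recovered. Testing was limited to genes that reached 10 in 3 or more libraries, on log2(value + 1), with limma 3.58.1 (R 4.3.3) and a variance trend in 1 fit of all 9 libraries. Fold changes are on that scale and understate the change of low genes. Calls needed a p below 0.05 after Benjamini-Hochberg adjustment across 12569 genes. Ratios of inducible to constitutive subunits were tested by exact permutation.

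Gene order came from the RefSeq gene table, promoters from RefSeq on GRCh38.p14, and exon lengths and overlaps from GENCODE. Named in full are the 6 catalytic subunits and the genes that passed in at least 1 comparison, 22 of 39. From each other list up to 4 passing genes of largest change in a given comparison are named, so a list can have more than 4. NFE2L1, PSMD5, POMP and SEM1 are named besides. The members and lists were chosen with earlier results of these data known. PSMB11, which is on a list, was not analysed here.

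Same-numbered libraries of parental and HRA cells deviated together from their group means, with correlations of 0.22, 0.38 and 0.14 over genes, all above 0.1, so results of a blocked fit (replicate number) stand beside that comparison. The pairing comes from the numbers in the labels. For parental and HRD they were −0.08, 0.26 and 0.29, and for HRA and HRD −0.03, 0.41 and 0.23. Alternatives were other pseudocounts, no filter, TMM scaling, edgeR 4.0.16 and DESeq2 1.42.0 on the recovered reads, the block, fits of 2 groups only, and leaving out libraries. Tables and figures were made in Python 3.11.15 (pandas 2.3.3, numpy 2.4.6, matplotlib 3.10.9, scipy 1.17.1).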

Additional observations from a re-analysis of the deposited data

Results flagged for a closer look

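For 4 proteasome genes the HRD libraries lay on one side of the parental mean and the HRA libraries on the other, and the direct difference between HRD and HRA passed the limma test. The difference, HRD minus HRA on the log2 scale, was 0.50 for PSMA4, 0.58 for PSMD2, 0.59 for PSMD7 and 0.69 for PSME4. These 4 are among the 10 genes higher in HRD than in HRA. Against parental cells, PSMD2 and PSMD7 did not pass by limma without the replicate block in either line, though DESeq2 called both higher in HRD, and PSMA4 and PSME4 passed in HRD.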

How the results depend on the processing

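Each count of called proteasome genes and each named gene's log2 fold change was recomputed under 19 alternatives. The falls of PSMB3, PSMD3, PSMD11 and PSME3 and the rise of PSME4 in HRD against parental cells passed in all 19. The 2 genes lower in HRA against parental cells became 0 without the filter, 1 (PSMC1) with TMM scaling or edgeR, 4 with DESeq2 or with the 2 groups alone, 6 with the replicate block, and 0 without the replicate 2 libraries. Leaving out 1 library gave 0 to 4: 0 without parental replicate 1 or 2 or any HRA library, 1 without HRD replicate 2, and 4 without parental replicate 3 or HRD replicate 1. The count of 0 higher in HRA became 1 (PSME1) with the 2 groups alone, and it was 0 to 1 when 1 library was left out, 1 without parental replicate 1, HRD replicate 1 or HRD replicate 2. In HRD against parental cells, the 3 genes higher became 5 with DESeq2, 6 with the replicate block, 1 with the 2 groups alone and 1 without the replicate 2 libraries. Leaving out 1 library gave 1 to 5, with 1 without HRD replicate 2 and 5 without HRD replicate 3. The 5 lower became 9 with the replicate block and 4 to 9 when 1 library was left out, with 9 without parental replicate 3 and 8 without HRD replicate 1. In HRD against HRA, the 10 higher became 5 without the replicate 2 libraries and 6 to 11 when 1 library was left out, with 6 without HRD replicate 1 or 2 or any HRA library. The 5 lower became 3 without the replicate 3 libraries. The replicate block gave 12 higher and 6 lower there. In each comparison with HRD, 4 of 6 libraries correlated best with the same-numbered library of the other group, so the number is only a hint of pairing there. Calls over all 12569 tested genes moved as well. In HRA against parental cells the 767 lower became 1202 with the replicate block, 231 without the replicate 2 libraries and 328 to 965 when 1 library was left out. In HRD against parental cells 1350 higher and 1513 lower became 1744 and 1895 with the block, and 740 and 730 without the replicate 2 libraries. In HRD against HRA 1749 higher and 2038 lower became 2257 and 2416, and 765 and 1060. The cause of these moves was not tested.

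Signs turned for log2 fold changes near 0 that had not passed. In HRD against parental cells, PSMD1 (−0.0025) became 0.000696 with TMM scaling, 0.00832 with edgeR, 0.00689 with DESeq2, 0.035 without the replicate 2 libraries and 0.019 without the replicate 3 libraries, and PSMD6 (0.015) became −0.00192 without the replicate 3 libraries. PSMB10 in HRA against parental cells (0.015) became −0.075 with edgeR, −0.072 with DESeq2, −0.12 without the replicate 2 libraries and −0.11 without the replicate 3 libraries. PSMC5 in HRD against HRA (−0.088) became 0.045 without the replicate 3 libraries. Leaving out 1 library gave, in HRD against parental cells, −0.22 to 0.052 for PSMB5, −0.060 to 0.26 for PSMB6, −0.030 to 0.18 for PSMB1, −0.32 to 0.12 for PSMB9, −0.13 to 0.10 for PSMD1, −0.044 to 0.083 for PSMD6 and −0.20 to 0.015 for PSME1. In HRA against parental cells it gave −0.21 to 0.042 for PSMB3, −0.000147 to 0.26 for PSMB8 and −0.17 to 0.37 for PSMB10, and in HRD against HRA −0.19 to 0.026 for PSMC5. Differences between groups in log2 catalytic ratio, none of which passed, could also turn sign when libraries were left out. That of PSMB9 over PSMB6 in HRD against parental cells (−0.22) turned positive without HRD replicate 1. For PSMB10 over PSMB7 in HRA against parental cells (0.16) the sign turned negative without parental replicate 2. With 3 libraries a group, the median standard error of a log2 fold change in HRA was 0.13, which limits the size of change that could be called.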
